A study of Drosophila melanogaster with 12 samples.

Results

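The RNA bound to tagged ribosomes of glia was compared with that bound to tagged ribosomes of the fat body in heads of adult Drosophila melanogaster. The members of this comparison were the genes with a value of at least 1 FPKM in the immunoprecipitate (IP) of either cell type, 9922 of the 15104 genes measured. FPKM is the number of sequenced fragments of a gene divided by its transcript length and by the sequencing depth, so levels of different genes are given per length. Flies of the glia group carried repo-Gal4 and UAS-GFP-L10A, each over a wild-type chromosome, and flies of the fat body group carried UAS-GFP-L10A and takeout-Gal4 in the same way. A neuron group with Elav-Gal4 and UAS-GFP-L10A gives values for orientation. All groups therefore shared the transgene for ribosomal protein L10A fused to GFP and the 2202U background, and the labels give neither sex nor age in days. Lysates of 1000 heads were sampled (Input) and then precipitated with an antibody against GFP (IP), polyA RNA was sequenced, and each of the 6 groups had 2 biological replicates that each pooled 4 technical ones. The deposited values are 1 FPKM per gene and group over both replicates, so none of them has an SD or an n, and the depth behind them is unknown. The drivers limit what the groups stand for, because repo-Gal4 acts in nearly all classes of glia together, and takeout is known from sensory organs of the head as well as from its fat body.

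Glia insulate and nourish neurons, clear transmitters from synapses and form the blood-brain barrier of the fly. The fat body combines roles that vertebrates divide between liver and adipose tissue. It stores glycogen and triglyceride, feeds trehalose and lipoproteins into the haemolymph, makes yolk and storage proteins and secretes antimicrobial peptides during infection. In the head it lies around the brain as pericerebral tissue.

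The genes of the drivers and of the tag were read first. repo, which encodes the homeodomain factor that fixes glial fate, had 141 FPKM in glia IP and 20.9 in fat body IP, beside 11.2 in neuron IP and 20.6 to 22.7 in the lysates. Only glia IP was high, and its log2 ratio of FPKM + 1, glia IP over fat body IP, was 2.70. This ratio is used throughout, and a positive value stands for more RNA in glia IP. to (takeout), a secreted juvenile-hormone-binding-like protein, stood at 55.8 FPKM in glia IP and 44.4 in fat body IP, against 9.57 in neuron IP and 9.32 to 12.5 in the lysates. Its ratio of 0.32 had a q of 0.130 in the authors' deposited table, so the gene of the fat body driver was above its lysates in both IPs and was not called between them. RpL10Ab, from which the tag derives its name, stood at 21969 FPKM (glia) and 44378 FPKM (fat body) in the precipitates (ratio -1.01, q 0.181 in the authors' deposited table), against 2083 to 2353 in the lysates, and reads of the transgene cannot be told apart from those of the gene itself. elav, an RNA-binding protein of neurons, had 1.36 and 1.88 FPKM (ratio -0.29, or 0.17 under the total scaling described below, q 0.329 in the authors' deposited table). Of these 4 genes repo alone was called.

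Of the 9922 genes, 1442 (14.5%) were higher in glia IP and 3518 (35.5%) were higher in fat body IP at a q under 0.05 in the authors' deposited table, with the direction read from FPKM. The q was listed as 0 for 1029 of the genes called, so single q-values are given below only where they exceed the threshold or decide a call. Ratios of the called genes ran from -8.69 to 7.32. At least 8-fold differences were found in 245 genes called higher in fat body and in 91 called higher in glia. The genes called in glia IP stood above their own lysate by a median log2 of 1.45 and had a median of -0.09 in fat body IP over its lysate. The mirror image held for the genes called in fat body IP, with medians of 1.28 over the fat body lysate and 0.08 over the glia lysate. These genes were chosen by the same IP columns, so the pattern is in part built into the choice. The median length of the longest transcript, in a later annotation that holds 94.8% of the genes, was 1892 bp for the first set and 1886 bp for the second. At the 1 FPKM floor, CG17744 was just inside with 1.00 FPKM in glia IP and 0.711 in fat body IP, and CG3708 was just outside with 0.9995 and 0.482 FPKM.

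How the columns were scaled to one another is not given in the sources used here, and another scale moves the split between the tissues. The median ratio of all 9922 genes was -0.32, and list medians below are to be read against that value. Scaling the columns to a median log2 ratio of 0 across the 5599 genes that had at least 5 FPKM in all 6 groups (median scaling) raised the ratios of those genes by a median of 0.41 and left 1473 called genes higher in glia and 3487 higher in fat body. Scaling to equal sums without ribosomal protein genes (total scaling) raised them by 0.76 and gave 2458 and 2502. The share of called genes that were higher in glia was thus 29.1% as deposited and 49.6% under total scaling. Under the latter 1016 called genes changed direction, and each list or gene below for which this happens is marked. The FPKM sums were 839886 in glia IP and 1704813 in fat body IP, against 570917 and 578807 in their lysates, so an IP set against its lysate depends on the scale as well. Statements of that kind below are on the deposited columns. Median scaling moved the log2 value over the lysate by a median of -0.45 in glia and -0.77 in fat body, and total scaling by -0.72 and -1.43. Under total scaling the genes called in fat body IP had a median of -0.10 over the fat body lysate and -0.59 over the glia lysate, and those called in glia IP had 0.81 over the glia lysate and -1.30 over the fat body lysate.

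**Figure D1:**
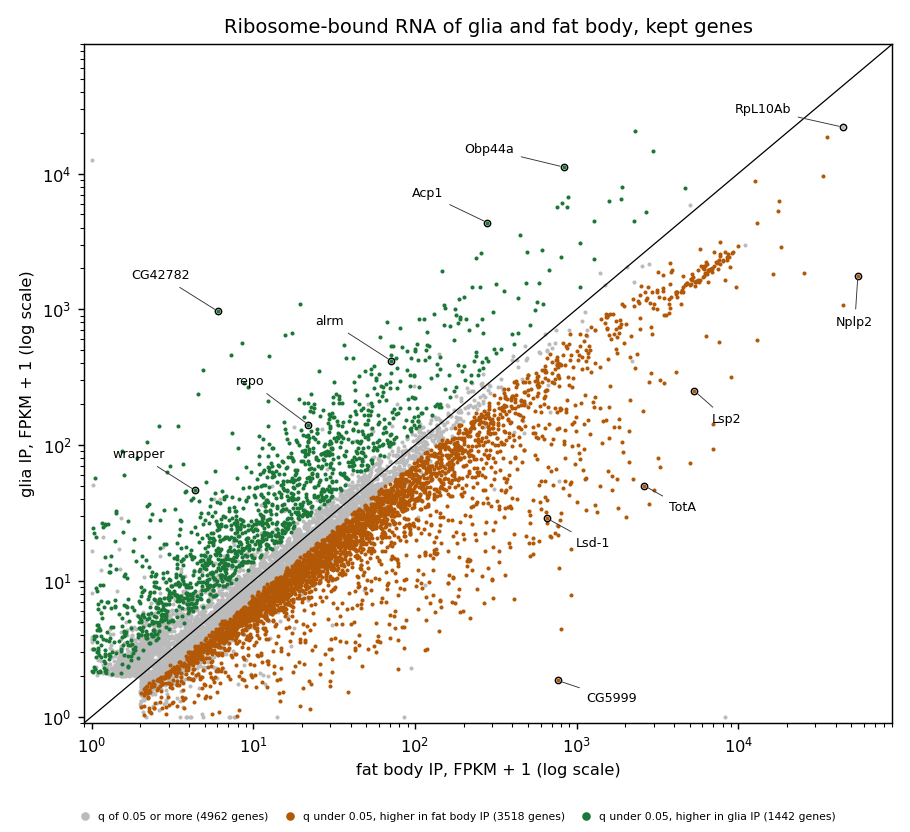
Deposited FPKM + 1 of glia IP (vertical, log scale) against fat body IP (horizontal, log scale), 1 point for each of the 9922 genes, coloured by the authors' q and by direction, with the line of equal values. The 3518 genes higher in fat body form a broad band under the line, and the dense cloud at the upper end of it holds the cytosolic ribosomal protein genes, while repo, alrm, wrapper and Obp44a stand well above the line.

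Genes that mark glia were higher in glia IP. Of the 10 kept members of the list of general glial genes, 6 were higher in glia IP and 0 in fat body IP, with a median ratio of 1.61. nrv2, a beta subunit of the sodium pump in glia, had 489 FPKM in glia IP and 98.7 in fat body IP, with 50.5 in neuron IP and 183 to 241 in the lysates (ratio 2.30). Here glia IP alone was above its lysate, and fat body IP was below. bnb, a glial gene of unknown biochemical function, had 527 against 81.7 FPKM (ratio 2.68). loco, a regulator of G-protein signalling needed at the blood-brain barrier, had 82.3 against 19.8 (ratio 2.00). axo, a secreted neurexin-like protein of glia, and htl, an FGF receptor of glia and mesoderm, had ratios of 1.78 and 1.44. drpr, the engulfment receptor with which glia clear debris, was not called, at 12.9 and 10.9 FPKM (q 0.388 in the authors' deposited table). gcm, gcm2 and pros, which act in glial development, did not reach 1 FPKM in either IP.

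Genes of the glial classes went the same way, though not as whole lists. Among wrapping, ensheathing and cortex glia genes 8 of 15 were higher in glia IP and 2 in fat body IP (median 0.86). As a list they were hardly above the glia lysate in glia IP (median log2 0.06, from -2.98 to 3.29). Fat body IP had a median of -0.42 over its lysate. wrapper, an immunoglobulin protein of midline and cortex glia, stood at 45.3 FPKM in glia IP, 3.37 in fat body IP, 2.51 in neuron IP and 3.53 to 4.31 in the lysates, a ratio of 3.41. hoe1, a membrane transporter, had 309 against 56.4 FPKM (ratio 2.44), and Cyp4g15, a cytochrome P450 of the nervous system, 234 against 49.6 (ratio 2.22). CG9657, a solute carrier now named rumpel, and ana, a glycoprotein that glia secrete, had ratios of 1.62 and 1.54.

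For the surface glia that form the blood-brain barrier 20 of 30 genes were higher in glia IP and 3 in fat body IP (median 0.60). Mdr65, the drug-exporting transporter of the barrier, had 39.0 against 4.44 FPKM (ratio 2.88), with 4.42 to 5.93 in the lysates. moody, the receptor that organises the barrier's junctions, had 35.5 against 17.2 (ratio 1.01). Components of septate junctions, the barrier's diffusion seal, were higher in glia by 1.60 for cora, 1.504 for Lac and 1.28 for the claudin pck, and by 0.59 and 0.47 for the claudins kune and sinu. Vmat, a vesicular monoamine transporter, had 103 against 29.4 FPKM (ratio 1.77), and the collagen IV genes vkg and Cg25C, components of basement membranes, had 1.60 and 1.26. Tret1-1, a trehalose transporter of barrier glia and other tissues, was among the exceptions, with 117 against 401 FPKM (ratio -1.77).

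Genes for the uptake and recycling of transmitters, which astrocyte-like glia carry out, were split. Of 18 genes 9 were higher in glia IP and 5 in fat body IP (median 0.49). alrm, a leucine-rich repeat protein of astrocyte-like glia, had 417 FPKM in glia IP, 70.1 in fat body IP, 38.0 in neuron IP and 76.6 to 77.8 in the lysates (ratio 2.56). The GABA transporter gene, listed as CG1732 and now named Gat, had a ratio of 1.69, ine, a transporter of the same family, 1.49, and the ammonium transporter gene Rh50 1.67. ebony (e), whose enzyme couples histamine and dopamine to beta-alanine, had 166 against 51.4 FPKM (ratio 1.67). Oatp58Dc, an organic anion transporter, had 68.4 against 11.3 (ratio 2.49). The glutamine synthetases went apart, with Gs2, the glial enzyme, at 2344 against 1282 FPKM (ratio 0.87) and Gs1, the mitochondrial one, at 44.3 against 359 (ratio -2.99). Eaat1, the glutamate transporter of astrocyte-like glia, was not called, at 80.4 and 67.6 FPKM (ratio 0.25, q 0.239 in the authors' deposited table). Innexins and membrane transporters known from both tissues had 3 of 16 genes higher in glia and 5 in fat body, shares of 18.8% and 31.2% that lie near the 14.5% and 35.5% of all kept genes. Among them mnd, an amino acid transporter, had a ratio of 2.73.

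Among other genes far above fat body IP with lysates less than 1.5-fold apart were CDase, the neutral ceramidase, at 111 against 10.5 FPKM (ratio 3.28), and egr, the TNF ligand of the fly, at 67.9 against 7.98 (ratio 2.94). Csas, which activates sialic acid for glycoproteins, had 533 against 69.7 FPKM (ratio 2.92). wtrw, a TRP channel gene, had 175 against 22.4 (ratio 2.91), and Cct2, now named Pcyt2, an enzyme of phosphatidylethanolamine synthesis, 163 against 25.0 (ratio 2.66). In each of these genes fat body IP was within 1.5-fold of the fat body lysate and glia IP alone was raised.

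Cuticle and lens genes and odorant-binding protein genes were also mostly higher in glia IP. Of the 52 cuticle and lens genes that reached the floor, out of 127 in the table, 31 were higher in glia and 3 in fat body (median 1.64). Acp1, an adult cuticle protein, had 4353 FPKM in glia IP, 279 in fat body IP, 731 in neuron IP and 420.2 to 627 in the lysates (ratio 3.96). retinin, a component of the corneal lens, had 8008 in glia IP and 1906 in fat body IP, and with 5599 FPKM neuron IP lay between them (ratio 2.07). Cry, the lens crystallin, had 82.8 against 26.6 (ratio 1.60). Cpr62Bc and Cpr97Eb, of the main chitin-binding family of cuticle proteins, had 322 and 231 FPKM in glia IP against 44.0 and 32.9 in fat body IP (ratios 2.84 and 2.77). TwdlE, of the Tweedle family of cuticle proteins, went the other way at 2.12 against 28.6 FPKM (ratio -3.24).

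Odorant-binding proteins are small secreted carriers of hydrophobic ligands, many of them found in sensory hairs. Of 24 genes 16 were higher in glia and 7 in fat body (median 1.60), and the levels at either end were high. Obp44a stood at 11168 FPKM in glia IP, 830.3 in fat body IP, 577 in neuron IP and 685 to 1207 in the lysates (ratio 3.75). Obp56e, Obp56d and Obp57c had 2715, 1961 and 770.4 FPKM in glia IP, with ratios of 2.16, 1.53 and 2.34, and lush, which acts in pheromone sensing by the antenna, had 44.6 against 5.37 FPKM (ratio 2.84). At the other end Obp99b stood at 91.9 FPKM in glia IP, 6963 in fat body IP, 371 in neuron IP and 235 to 239 in the lysates (ratio -6.23). Obp99c had 593 against 13019 FPKM (ratio -4.45) and Obp99a 152 against 1180.0 (ratio -2.95). Odorant, gustatory and ionotropic receptor genes gave little signal, with 7 of 186 at the floor and 0 called in either direction at the q of the authors' deposited table.

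Genes of fat body secretions were higher in fat body IP, with exceptions. Of 28 kept genes for fat body and haemolymph proteins 18 were higher in fat body and 5 in glia (median -1.97). Lsp2, a storage protein of the haemolymph, had 250.4 FPKM in glia IP and 5338 in fat body IP, with 443 in neuron IP and 482 to 1038 in the lysates (ratio -4.41). Nplp2, which encodes a secreted haemolymph protein despite its neuropeptide-like name, had the highest value of fat body IP, 54996 FPKM against 1768 in glia IP (ratio -4.96). The yolk protein genes Yp1, Yp2 and Yp3 had 2882, 1449 and 1828 FPKM in glia IP and 18284, 9633 and 16396 in fat body IP (ratios -2.66, -2.73 and -3.16). Rfabg, the precursor of the lipophorin that carries lipid in the haemolymph, had 29.4 against 515 FPKM (ratio -4.08), and Mtp, the transfer protein that loads it, had 8.96 against 75.2 (ratio -2.94). Among signals that the fat body sends, CCHa2, a nutrient-dependent peptide, had a ratio of -3.53, the satiety peptide gene fit -3.45 and the insulin-like peptide gene Ilp6 -1.36. The 5 members higher in glia were Cyp4d21 (2.17), Cat (1.94), NLaz (1.69), sxe2 (1.56) and Hex-A (1.30), with NLaz encoding a lipocalin and Hex-A the widely expressed hexokinase.

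Genes of lipid and sugar metabolism were mostly higher in fat body IP on the deposited columns. Of 29 genes for lipid droplets, fatty acid synthesis and lipolysis 20 were higher in fat body and 2 in glia. Their median was -1.61, or -0.81 under total scaling, and they held 1.20% of the FPKM sum of glia IP and 1.24% of that of fat body IP. Lsd-1, a perilipin that coats lipid droplets, had 27.9 FPKM in glia IP, 653 in fat body IP, 46.2 in neuron IP and 69.3 to 82.2 in the lysates (ratio -4.50). Lsd-2, the other perilipin, differed less, with 88.9 against 246 FPKM (ratio -1.46). The desaturase gene desat1 had 291 against 2789 (ratio -3.26), and the ratios were -2.52 for AcCoAS (acetyl-CoA synthase), -1.84 for ACC (acetyl-CoA carboxylase), -1.505 for ATPCL (citrate lyase), -2.54 for mdy (diacylglycerol acyltransferase) and -1.69 for the triglyceride lipase bmm. fabp, a fatty-acid-binding protein, was abundant and not called, at 5867 and 5062 FPKM (q 0.648 in the authors' deposited table). The whole list summed to 10104 FPKM in glia IP and 21172 in fat body IP, so its near-equal shares depend on fabp. Fatp, a fatty acid transporter, was 1 of the 2 genes higher in glia (ratio 0.55).

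Carbohydrate storage and trehalose genes had 14 of 16 higher in fat body and 1 in glia (median -3.07, or -2.28 under total scaling). Tps1, which makes trehalose, the circulating sugar, had 73.6 FPKM in glia IP, 2096 in fat body IP, 147 in neuron IP and 202 to 262 in the lysates (ratio -4.81). The gene higher in glia was Treh, the trehalase that splits this sugar, at 260.0 against 153 FPKM (ratio 0.76). tobi, an insulin-responsive glucosidase, had a ratio of -4.75, GlyP (glycogen phosphorylase) -3.06 and UGP (UDP-glucose synthesis) -3.57. For gluconeogenesis Pepck had 136 against 1696 FPKM (ratio -3.63) and fbp 40.1 against 639.5 (ratio -3.96). GRHR, now named AkhR, the receptor for adipokinetic hormone that mobilises these stores, had 6.91 against 128 FPKM (ratio -4.03).

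The hexokinase genes went apart. Hex-C, the form known from fat body, had 17.9 FPKM in glia IP and 538 in fat body IP (ratio -4.84), and Hex-A 60.4 and 23.9 (ratio 1.30). Of 13 glycolytic genes 7 were higher in fat body and 1, Hex-A, in glia (median -0.90, or -0.10 under total scaling). Their share of the FPKM sum was nearly the same in both, 0.953% of glia IP and 0.989% of fat body IP. ImpL3, the lactate dehydrogenase gene, had 13.3 against 76.0 FPKM (ratio -2.43). Ald (aldolase) had 417 against 2211 FPKM and Pgi 176 against 683, yet both were listed with a q of 1 in the authors' deposited table. The same q of 1 stood at 115 of the genes kept, and what set it is not given in the sources used here.

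Other large differences towards the fat body were those of single genes. Sodh-1, a sorbitol dehydrogenase, had 54.9 FPKM in glia IP, 2231 in fat body IP, 198 in neuron IP and 166 to 305 in the lysates (ratio -5.32). UK114 had 79.0 against 3173 FPKM (ratio -5.31), and sPLA2, a secreted phospholipase, 6.35 against 411 (ratio -5.81). lectin-28C, a sugar-binding lectin, had a ratio of -5.04 and Cyt-b5-r, related to cytochrome b5, -4.96. In each of these genes glia IP was under the glia lysate and fat body IP was above the fat body lysate. CG6503, counted above among the haemolymph proteins and not described by the files, had the second highest value of fat body IP, 44633 FPKM against 1074 in glia IP (ratio -5.38).

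**Figure D2:**
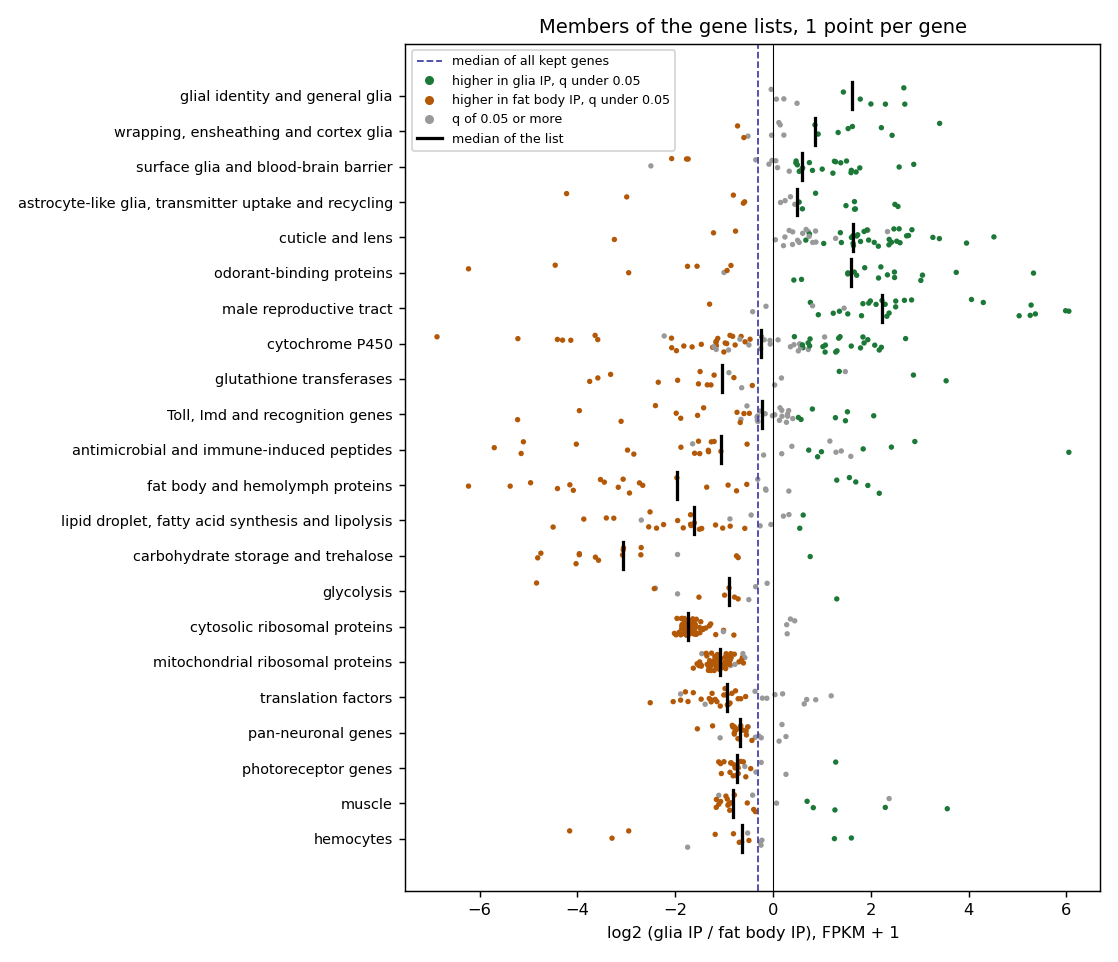
Log2 ratio of glia IP over fat body IP (FPKM + 1, horizontal) for each kept member of 22 gene lists, 1 point per gene, coloured by the authors' q and direction, with the median of each list as a bar and the median of all 9922 genes as a dashed line. Glial, cuticle and male tract lists lie mostly to the right of both lines, metabolic and ribosomal lists lie to the left, and odorant-binding, P450 and immune lists spread to both sides.

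Genes of humoral immunity were found on both sides. Of 31 genes for antimicrobial and immune-induced peptides 16 were higher in fat body and 7 in glia (median -1.06). These are 51.6% and 22.6%, beside 35.5% and 14.5% of all kept genes. Among the 7 was Anp, which is also counted below with the genes of the male reproductive tract. In the Inputs 13 of the 31 were at least 2-fold higher in the glia lysate and 1, Def, in the fat body lysate. Among the other 17 the counts were 10 and 4. The stress-induced humoral gene TotA had 49.3 FPKM in glia IP, 2616 in fat body IP, 107 in neuron IP and 223 to 261 in the lysates (ratio -5.70), and TotX and TotC had ratios of -5.15 and -5.10. Drs, the antifungal peptide drosomycin, had 321 against 771 FPKM (ratio -1.26). Its relatives went the other way, with dro4 at 2631 against 490.3 (ratio 2.42) and dro5 at 4497 against 2263 (ratio 0.99), and dro5 nevertheless stood above its own lysate in both IPs (log2 3.68 in glia and 2.25 in fat body). Within the immune-induced IM peptides, targets of the Toll pathway, IM1 was higher in glia (7776 against 4686 FPKM, ratio 0.73), close to its lysate ratio of 0.63, and IM2, IM4 and IM14 were higher in fat body (ratios -1.32, -1.60 and -1.499).

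Some immune genes had opposite orders in lysates and IPs. Dro (drosocin) had 203 FPKM in the glia lysate, 29.2 in the fat body lysate and 56.0 in the neuron lysate, and 69.2 in glia IP against 201 in fat body IP. Mtk (metchnikowin) had 256 and 78.3 FPKM in the glia and fat body lysates and 106 and 839 in the IPs. Dpt (diptericin) had 33.9 and 7.61 in the lysates and 16.7 and 39.9 in the IPs. In these genes the glia lysate was the higher of the pair and fat body IP was the higher of the pair, with IP ratios of -1.52, -2.98 and -1.20 beside Input ratios of 2.76, 1.70 and 2.02.

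Genes of the Toll and Imd pathways and of recognition had 12 of 38 higher in fat body and 7 in glia, shares of 31.6% and 18.4% near the 35.5% and 14.5% of all kept genes, with a median of -0.22 that turned positive under both scalings. Secreted peptidoglycan recognition proteins were on the fat body side, PGRP-SC2 at 2.17 against 118 FPKM (ratio -5.22), PGRP-SD at -3.96 and PGRP-SA, which senses Gram-positive bacteria, at -2.40. On the glia side were pirk, an inhibitor of Imd signalling (25.2 against 5.28 FPKM, ratio 2.06), PGRP-LA (1.28) and dl, the Toll-pathway factor Dorsal (1.48). The sterol-binding Npc genes were split, with 3 of 6 higher in fat body and 2 in glia (median -0.62, positive under total scaling). These are 50% and 33.3% of a short list. Npc2g had 35.6 FPKM in glia IP, 2820.2 in fat body IP, 176 in neuron IP and 118 to 213 in the lysates (ratio -6.27), and Npc2h had a ratio of -6.10. Npc2b stood at 497 against 116 FPKM (ratio 2.09) and Npc2a at 669 against 433 (ratio 0.63).

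Detoxification and antioxidant families held members at both ends. Cytochrome P450 genes had 22 of 68 higher in glia and 27 in fat body, and their median of -0.24 turned positive under both scalings. The shares were 32.4% in glia and 39.7% in fat body, beside 14.5% and 35.5% of all kept genes, so the fat body share lies near the background. Cyp28d1 had 185 against 417 FPKM (ratio -1.17) and Cyp4ac1 2.11 against 115 (ratio -5.22), while Cyp6d5 had 479.5 against 316 (ratio 0.60) and Cyp28c1 17.8 against 1.87 (ratio 2.71). Glutathione transferase genes, whose enzymes conjugate toxins, had 12 of 20 higher in fat body and 3 in glia (median -1.05). Within the GstE family GstE9 had 214 against 2145 FPKM (ratio -3.32) and GstE7 -3.75, whereas GstE2 had 237 against 31.5 FPKM (ratio 2.87) and GstE10 14.3 against 0.317 (ratio 3.54). Metallothionein, iron and antioxidant genes had 10 of 24 higher in fat body and 3 in glia (median -0.51, positive under total scaling), and these shares of 41.7% and 12.5% also lie near the background of 35.5% and 14.5%. The metallothionein gene MtnA was high in both IPs at 18654 and 35469 FPKM, against 2401 to 4257 in the lysates, and Jafrac1, a peroxiredoxin, had 1018 against 2959.6 (ratio -1.54). Cat (catalase) had 1364 against 355 FPKM (ratio 1.94), and the superoxide dismutase gene listed as CG9027 and now named Sod3 had 533 against 72.7 (ratio 2.86).

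Genes of the translation apparatus were higher in fat body IP almost throughout. Of 88 cytosolic ribosomal protein genes 83 were higher in fat body and 0 in glia (median -1.73). They held 21.1% of the FPKM sum of glia IP and 32.5% of that of fat body IP. In the matching lysates the shares were 31.1% and 29.2%, so glia IP held the lowest share of these 4 columns. Neuron IP held less still, 17.6%, beside 27.2% of its lysate, so a low share was not particular to glia IP. The list includes RpL10Ab, whose reads cannot be told apart from those of the tag. RpL10Ab rose from 2273 FPKM in the fat body lysate to 44378 after precipitation, and from 2353 to 21969 in glia. Together repo, to, elav and RpL10Ab held 2.64% of the FPKM sum of glia IP and 2.61% of that of fat body IP. Nearly all of this was RpL10Ab. How much of the RpL10Ab part was due to the tag was not tested. With each IP set over its own lysate, the list medians were -0.16 in glia and 1.59 in fat body as deposited. They were -0.64 and 0.79 after median scaling, and -0.92 and 0.11 with total scaling. RpL41 had 9609 FPKM in glia IP, 33424 in fat body IP, 7848 in neuron IP and 9432 to 10969.6 in the lysates (ratio -1.80). As a share of the FPKM sum it was 1.14% of glia IP, 1.96% of fat body IP and 1.63% to 1.72% of the lysates. Mitochondrial ribosomal protein genes had 68 of 73 higher in fat body and 0 in glia (median -1.08). mRpL12 had 62.1 against 173 FPKM, with 194 in neuron IP. Translation factors had 26 of 37 higher in fat body and 0 in glia (median -0.95). These 3 medians stayed negative under both scalings, at -0.94, -0.30 and -0.18 under total scaling. Proteasome genes (26 of 32 higher in fat body, 0 in glia, median -0.70) and heat shock and chaperone genes (9 of 20 and 3, median -0.64) had medians that turned positive under total scaling. The heat shock shares of 45% and 15% stand beside 35.5% and 14.5% of all kept genes.

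Markers of other cell types were present in both IPs and were read against their lysates. Of 28 pan-neuronal genes 20 were higher in fat body IP and 0 in glia IP (median -0.67, and -0.02 under total scaling). Both IPs held less of most of them than the lysates, with medians over Input of -2.58 in glia and -2.14 in fat body (-3.26 and -3.47 under total scaling). Syt1, the calcium sensor of synaptic vesicles, had 3.51 and 6.70 FPKM in the glia and fat body IPs, far below the 51.5 to 85.9 FPKM of the Inputs, and n-syb, of the vesicle fusion machinery, 43.7 and 76.4 against 270.5 to 396. The summed FPKM of the 5 neuronal markers elav, n-syb, Syt1, brp and cpx was 87.0 in glia IP, 167 in fat body IP and 498 in neuron IP, and none of them was at 0. For the 4 photoreceptor markers ninaE, trp, Arr2 and norpA the sums were 3770.0, 7477 and 22145. ninaE, the main rhodopsin gene, had 2769 and 5822 FPKM in the glia and fat body IPs and 7795 and 10027 in their lysates (ratio -1.07). Photoreceptor genes as a list had 18 of 23 higher in fat body and 1, ninaB, in glia (median -0.73, or 0.07 under total scaling). Neuropeptide precursor genes had 16 of 31 higher in fat body and 1 in glia (median -0.80). The 16 include Nplp2 and CCHa2, given above among fat body secretions, so the list does not hold neuronal genes alone. Among the 16 was also Pdf, the clock peptide of neurons, at 10.7 and 27.7 FPKM against 471 in neuron IP.

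Muscle genes had 15 of 24 higher in fat body and 5 in glia (median -0.82), and the summed FPKM of the 4 markers Mhc, Mlc2, Act88F and up was 339 in glia IP and 626 in fat body IP, against 1452 and 1443 in the lysates. Hemocytes, the blood cells, were weakly represented. Their markers Hml, nimC1 and Pxn were between 0.904 and 4.57 FPKM in these IPs, and He and eater stayed under the floor. The hemocyte list had 7 of 15 genes higher in fat body and 2, the collagen genes vkg and Cg25C, in glia (median -0.64). These are 46.7% and 13.3%, beside 35.5% and 14.5% of all kept genes. Its largest ratios were those of nimC3 (-4.16), nimB2 (-3.29) and srp, a GATA factor of fat body and blood (-2.95). Eye pigment genes had 7 of 17 higher in fat body and 2 in glia (median -0.19). Circadian genes had 6 of 14 and 0 (median -0.28). Both medians turned positive under both scalings. The called shares of the eye pigment genes, 41.2% and 11.8%, lie near the 35.5% and 14.5% of all kept genes. Those of the circadian genes were 42.9% and 0%. The part of RNA from other cells in any ratio above was not tested. In such bulk samples fewer cells of a type and less RNA per cell cannot be told apart.

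**Figure D3:**
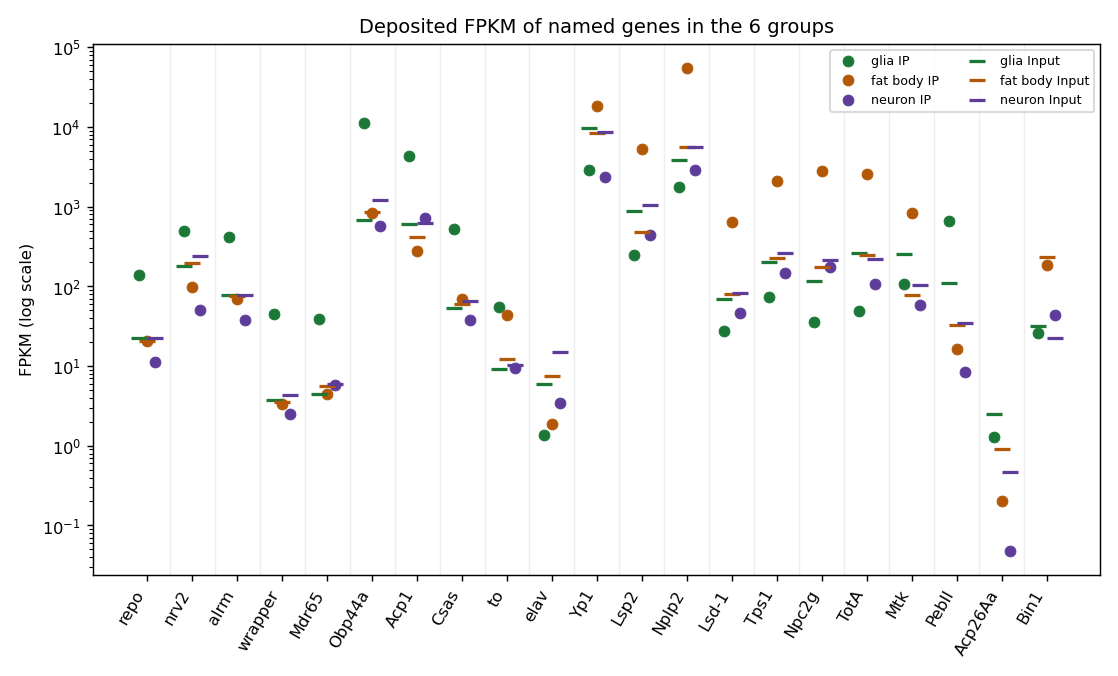
Deposited FPKM (log scale) of 21 named genes, with dots for the 3 IPs and dashes for the 3 Inputs, coloured by cell type. The 3 Inputs lie close together for most genes, glia IP stands alone at the top for repo through Csas, fat body IP stands alone at the top for Yp1 through Mtk, and for Mtk, PebII, Acp26Aa and Bin1 the lysates themselves are apart.

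The lysates were set beside the IPs to find genes that differed before the precipitation. Of the 9914 genes above 0 in both lysates, 738 (7.44%) were at least 2-fold higher in the glia lysate and 32 (0.323%) were at least 2-fold higher in the fat body lysate. Most of the first were low, with a median of 2.35 FPKM in the higher of the IPs against 15.3 for all kept genes. Among the 1442 genes called higher in glia IP 108 (7.49%) had lysates 2-fold apart in the same direction, beside 7.44% of all genes. That background is mostly of genes not called, 612 of the 738. With a floor of 5 FPKM the genes higher in the glia lysate numbered 191, and 96 of them were called higher in glia IP. Over all genes 1276 were called so with that floor, and the matching share was not worked out. At the floor of 1 FPKM the share was 14.5%, which is not a like comparison. Among the 3518 called higher in fat body IP 28 (0.796%) had lysates apart in the same direction, against 0.323%, and 18 in the opposite direction. Lysates less than 1.5-fold apart were the rule, in 88.1% of the first set and 96.0% of the second.

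The IP ratio minus the Input ratio, on the log2 scale, sets each IP against its own lysate. Of 9899 genes above 0 in all 4 columns it was at least 1 in 1107 (11.2%) and at most -1 in 1689 (17.1%). Of the genes called higher in glia IP 1003 had a difference of at least 1, and of those called higher in fat body IP 1452 had a difference of at most -1. The calls and the differences use the same IP columns, so these counts are descriptions and no separate evidence. A smaller group moved in opposite directions over the lysates. In 154 called genes 1 IP was at least 2-fold above its lysate and the other at least 2-fold below, and fat body IP was the raised one in 144 of them and glia IP in 10. This balance rested on the scale, with 201 and 97 genes after median scaling, and with total scaling 180 and 343 in the same order.

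**Figure D4:**
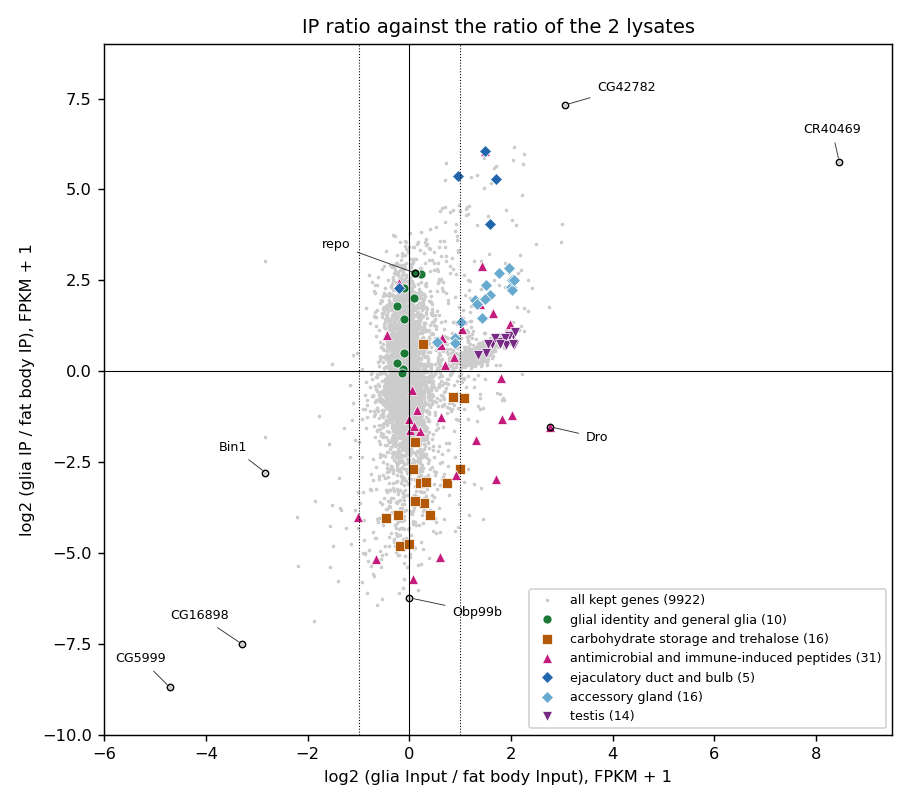
Log2 ratio of glia IP over fat body IP (vertical) against the log2 ratio of glia Input over fat body Input (horizontal), FPKM + 1, 1 point per kept gene, with dotted lines at 2-fold in the lysates. Glial and carbohydrate genes spread vertically near a lysate ratio of 0, genes of the accessory gland and testis sit to the right of the 2-fold line, and CG5999, CG16898 and Bin1 sit at the far left.

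Genes of the male reproductive tract, an organ that lies in the abdomen, differed between the lysates as a list. Of 31 such genes 26 were higher in glia IP and 1 in fat body IP (median 2.23), and 20 of them were at least 2-fold higher in the glia lysate. Leaving those out, 7 of 11 were higher in glia IP and 1 in fat body IP. The 6 markers Acp26Aa, Acp36DE, Acp70A, Dup99B, Anp and PebII summed to 277 FPKM in the glia lysate, 95.5 in the fat body lysate and 95.3 in the neuron lysate. In the IPs the sums were 1949, 46.1 and 21.3, so glia IP was far above both its lysate and the other IPs.

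Genes of the tract's organs differed in how glia IP stood to its lysate. The lists behind this division were written after the values had been seen. All 5 genes of the ejaculatory duct and bulb, Anp, Dup99B, Peb, PebII and PebIII, were higher in glia IP, and they were above the glia lysate by log2 values of 2.23 to 3.44. PebII had 672 FPKM in glia IP, 16.3 in fat body IP, 8.39 in neuron IP and 33.1 to 109 in the lysates (ratio 5.28, Input ratio 1.69). PebIII was the exception among the lysates, with 1591 FPKM in the glia lysate and 1826 in the fat body lysate, and had 14668 against 2989.7 FPKM in the IPs (ratio 2.29). Accessory gland genes were higher in glia IP in 14 of 16 cases (median 2.05), close to their lysate ratio (median 1.504), and glia IP was not above the glia lysate (median -0.22, from -0.63 to 0.13). Acp70A, the sex peptide, had 50.9 and 12.3 FPKM in the glia and fat body lysates and 55.9 and 6.97 in the IPs. Testis genes had 4 of 14 called in the glia direction (median 0.76), a median lysate ratio of 1.82 and a glia IP under its lysate (median -1.60). CG42782, which the files do not describe, had the highest ratio of all called genes, 7.32, with 74.6 and 8.11 FPKM in the glia and fat body lysates and 965 and 5.04 in the IPs. Whether the drivers act in these organs, and where the RNA of these genes in a lysate of heads came from, was not tested.

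Other lysate differences were those of single genes and of flight muscle. Act88F, the actin of indirect flight muscle, had 39.3 FPKM in the glia lysate, 4.09 in the fat body lysate and 5.35 in the neuron lysate, and 44.0 and 2.80 in the glia and fat body IPs (ratio 3.56). fln, a myosin-binding protein of the same muscle, had Input and IP ratios of 2.41 and 2.30. Cyp4g1, a P450 of the cuticle-lipid-producing oenocytes, had 39.5 and 14.5 FPKM in the lysates and 12.04 and 7.54 in the IPs. Among the genes called in the fat body direction CG5999, a UDP-glycosyltransferase gene now named Ugt37A3, had 2.04 FPKM in the glia lysate, 78.9 in the fat body lysate and 7.498 in the neuron lysate, beside 0.847, 762.1 and 11.4 in the IPs. Its IP ratio of -8.69 was the lowest of all called genes, beside an Input ratio of -4.72. CG16898 had Input and IP ratios of -3.29 and -7.51, and the P450 gene Cyp309a1 -1.88 and -6.87. Bin1, a subunit of the Sin3 histone deacetylase complex, had 32.0 and 234 FPKM in the glia and fat body lysates and 26.4 and 188 in the IPs, nearly the same ratio before and after precipitation (-2.83 and -2.79). w (white), the eye pigment transporter gene that commonly marks transgenes, had 16.7 and 5.67 FPKM in the glia and fat body lysates and 81.1 and 16.1 in the glia and fat body IPs.

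**Figure D5:**
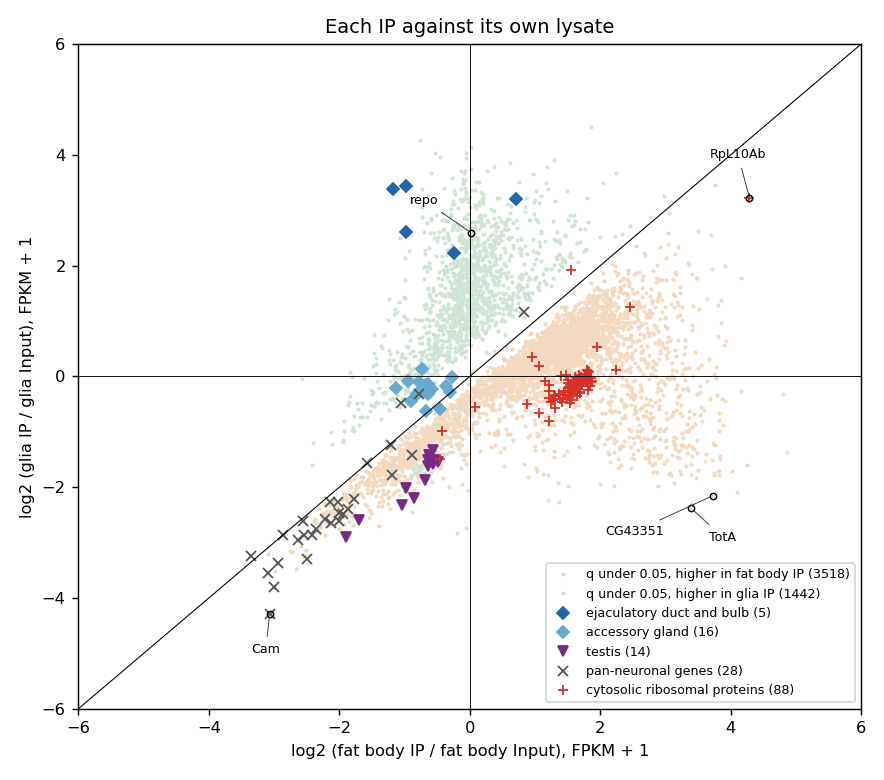
Log2 ratio of glia IP over glia Input (vertical) against fat body IP over fat body Input (horizontal), FPKM + 1, on the deposited columns for the called genes (pale) and 5 lists, with the line of equal values. Ejaculatory duct and bulb genes lie high, on the left except for PebIII (0.71 on the horizontal axis). Accessory gland genes lie near 0 and testis genes lie below 0 on the vertical axis. Pan-neuronal genes are mostly low on both axes, and ribosomal protein genes lie mostly to the right on the horizontal axis (median 1.59, or 0.11 under total scaling).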

How the data were processed

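Libraries were made from polyA RNA of 12 samples, in 6 groups of 2 replicates. According to the submitters' processing notes, TopHat2 2.0.6, Cufflinks 2.0.2, Cuffdiff 2.0.2 and the BDGP5 genome were used. The authors deposited 1 FPKM per gene and group, combined over both replicates, on a linear scale. The authors also deposited a q-value per gene for each pair of IP groups, and which tool gave it is not stated. How the replicates were combined, how reads shared by near-identical genes were divided and whether strand was used are not given in the sources used here. No counts and no values for single replicates were available to this work, so the precision is unknown, and the linear models planned for values per replicate were not run.

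Genes with at least 1 FPKM in the glia or fat body IP were kept. Log2 ratios use FPKM + 1. A gene was called at a deposited q under 0.05, with its direction read from FPKM. Inputs, and differences of ratios, have no q and were counted from 2-fold, leaving out genes listed at 0. The comparisons with Input share columns with the comparison of the IPs. The 32 gene lists came from general knowledge and symbol families, symbols caught wrongly by a pattern were removed after the table had been seen, and 10 more lists were written after the values had been seen. The members and lists were chosen with earlier results of these data known, so list counts are descriptions. Medians leave out the 2 list members at 0 in an IP.

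Genes were named by a rule. It takes repo, to, RpL10Ab and elav, the 5 highest of each IP, and the 15 largest ratios in each direction among called genes with at least 5 FPKM and a name beyond a plain CG or CR number. It adds the 8 largest with Inputs under 1.5-fold apart, the 8 largest Input ratios in each direction, 5 called genes in each direction with opposite Input ratios, 3 genes on each side of the floor, and 3 abundant and 3 strongly changed members of each list. Of 173 genes with values in the text 98 were named by it and 75 were chosen after their values had been seen. Identifiers matched a later name table for 94.3% of 15104 genes, which gave the newer names, and transcript lengths came from the annotation of the same release with no coordinates used. Calculations used Python 3.11.15, numpy 2.4.6 and pandas 2.3.3, figures matplotlib 3.10.9, and the counting was tested on simulated data. Alternatives were other thresholds, pseudocounts of 0.1 and 5, and 2 other scalings.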

Additional observations from a re-analysis of the deposited data

Results flagged for a closer look

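Genes were picked out here when glia IP stood at least 4-fold below the glia lysate and fat body IP at least 4-fold above the fat body lysate, or the reverse, among genes called between the IPs. There were 4 on the deposited columns, all of the first kind. Under median scaling there were 28 of the first kind and 0 of the reverse, and under total scaling 17 and 6, and the difference between the tissues was not tested. TotA had log2 values over the lysate of -2.38 in glia and 3.39 in fat body, a difference of -5.77, and TotC, a gene of the same stress-induced family, had -2.31 and 3.40, a difference of -5.71. CG43351 had 324 and 72.3 FPKM in the glia lysate and IP and 376 and 4997 in those of the fat body, a difference of -5.88. CG43114 had 195, 45.5, 174 and 2999 FPKM in the same order, a difference of -6.18. The files give no function for the CG genes, which were chosen after their values had been seen.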

How the results depend on the processing

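No paired analysis was possible because the deposited values are combined over replicates, and leaving out a replicate was not run for the same reason. The depth is unknown, so no limit from it can be given. Genes called higher in fat body numbered 1602 with a 2-fold minimum added and 1706 at 2-fold with no q, and genes called higher in glia numbered 2458 under total scaling. Genes at least 2-fold higher in the glia lysate, 738 as reported, numbered 191 with a floor of 5 FPKM, so this count rested largely on low genes. They numbered 193 with a pseudocount of 5 and 174 at 3-fold. Those higher in the fat body lysate, 32 as reported, numbered 29 with the floor of 5 FPKM, so most were not low. They numbered 57 and 15 with pseudocounts of 0.1 and 5, and 8 at 3-fold. Called genes with lysates apart in the same direction numbered 68 for glia at 3-fold, and for fat body 15 with a pseudocount of 5, 8 at 3-fold and 82 at 1.5-fold. Fat body calls with a difference of ratios of -1 or less numbered 964 under median scaling, 644 under total scaling and, in an alternative chosen after seeing the data, 2191 with the neuron lysate in place of the glia lysate. Also chosen after seeing the data, both scalings were applied to each IP over its lysate. Called genes at least 2-fold above the lysate in glia IP and 2-fold below it in fat body IP, 10 as deposited, numbered 97 and 343 under median and total scaling. Genes called in fat body IP had medians over the glia lysate of -0.34 and -0.59 under median and total scaling, and of -0.10 over the fat body lysate under total scaling. The other counts stayed within 1.5 times.

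Of 171 gene ratios, 170 kept their sign under median and 169 under total scaling, and all kept it with either pseudocount. The exceptions were Pxn (0.11 and 0.38 under median and total scaling) and elav (0.17 under total). Of 42 list medians 37 and 32 kept their sign under median and total scaling, and the cause is the shift of all genes. Medians under median and then total scaling were 0.18 and 0.52 for Toll and Imd genes, 0.14 and 0.41 for eye pigment, 0.23 and 0.54 for chemoreceptors, 0.092 and 0.40 for P450 and 0.071 and 0.40 for circadian genes. Under total scaling alone they were 0.028 for Npc, 0.29 for metallothionein and antioxidant, 0.067 for photoreceptor, 0.059 for proteasome and 0.14 for heat shock genes. The driver and tag list, with a median of 0.02, had -0.057 with a pseudocount of 0.1, and the cause was not tested. Leaving out genes with lysates 2-fold apart, also chosen after seeing the data, turned none of the 40 medians that could be computed.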

Other observations

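Genes of amino acid breakdown, a list written after the values had been seen, were divided along single pathways. Of 22 genes 14 were higher in fat body IP and 6 in glia IP (median -2.25). Hn, the phenylalanine hydroxylase that makes tyrosine, had 161 FPKM in glia IP and 984 in fat body IP, with 161 in neuron IP and 106 to 137 in the lysates (ratio -2.61). The enzymes that degrade tyrosine further stood on the glia side. CG11796, now named Hpd, the dioxygenase of the next ring-oxidising step, had 1469.9 FPKM in glia IP, 252 in fat body IP, 276 in neuron IP and 180.0 to 228 in the lysates (ratio 2.54). hgo, which opens the ring, had 89.5 against 19.0 FPKM (ratio 2.18), CG9363, now named GstZ2, of the maleylacetoacetate isomerase family, 92.2 against 21.1 (ratio 2.07), and Faa, the last enzyme, 147 against 35.0 (ratio 2.04). The lysates of these 4 genes had ratios between -0.16 and 0.08. On the fat body side were ppl, of glycine cleavage (63.6 against 1574 FPKM, ratio -4.61), the transaminase gene Spat (-4.67), v, the tryptophan oxygenase (-3.65), and CG6188, now named Gnmt, the glycine methyltransferase (-4.27). The 6 genes higher in glia IP include Uro, whose enzyme, urate oxidase, acts on urate and not on an amino acid. Uro, known from the Malpighian tubules, had 25.9 FPKM in glia IP and 0.164 in fat body IP, with 1.93 and 0.295 in their lysates. Its ratio of 4.53 was the highest of the list, beside an Input ratio of 1.18.

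Other lists written after the values had been seen gave the following counts. Genes for translocation into the endoplasmic reticulum and folding there were higher in fat body in 22 of 23 cases and in glia in 0 (median -1.19), Sec61beta, of the translocation channel, having 347 against 1234 FPKM. Respiratory chain genes had 61 of 75 higher in fat body and 1 in glia (median -1.004). The vacuolar proton pump had 8 of 23 genes higher in glia and 2 in fat body (median 0.30), with Vha68-2, a catalytic subunit, at 171 against 77.3 FPKM. The pump's shares of 34.8% and 8.70% stand beside 14.5% and 35.5% of all kept genes. UDP-glycosyltransferase genes had 7 of 18 higher in glia and 5 in fat body, Ugt35b having 111 against 21.027 FPKM, and serpin genes 4 and 5 of 17. The shares in glia and fat body were 38.9% and 27.8% for the former and 23.5% and 29.4% for the serpins. Over all kept genes they were 14.5% and 35.5%.

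Adh was listed at 0 in fat body IP with 12630.4 FPKM in glia IP and 6294 in the fat body lysate, and Nplp3 at 0 in glia IP with 8300.4 in fat body IP and 11374 in the glia lysate. Both had a q of 1 in the authors' deposited table. They are among the genes kept and the list sizes given above, as genes not called, and are left out of list medians. The noncoding gene CR40469 had 383 FPKM in the glia lysate against 0.0955 and 0.268 in those of fat body and neurons, and 56.4 in glia IP against 0.0548 in fat body IP.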
